A study of Homo sapiens with 6 samples.

Results

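RNA polymerase I and RNA polymerase III make the RNAs of the translation machinery. The 35 genes described here encode subunits found in Pol I, in Pol III or in both of these enzymes but not in Pol II, together with their dedicated initiation factors and the Pol III repressor MAF1. The rule names members by function and uses no measured value, although the list was drawn up with earlier results of this screen known. All 35 were measured, of 18905 genes in all, with 174 of the 103176 analysed sgRNAs at the start sites used.

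Pol I transcribes a single product, the precursor of the large ribosomal RNAs, from the repeated ribosomal DNA in the nucleolus. Its promoter is bound by UBTF and by the TBP-containing factor SL1, and the enzyme is recruited through RRN3. Pol III makes transfer RNAs, 5S ribosomal RNA and a set of small RNAs that includes U6. TFIIIA and TFIIIC read promoter elements inside the gene and place TFIIIB, whose BRF1 form serves most Pol III genes and whose BRF2 form serves U6-type promoters that lie upstream of the gene. Both enzymes are required for growth and are set by nutrient signalling and MYC, and MAF1 holds Pol III back when nutrients are short. The sgRNAs of this kind of library are themselves transcribed by Pol III from a U6 promoter, whereas the receptor is transcribed by Pol II.

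The screen asked which genes alter the level of an opioid receptor after agonist. It used HEK293 FLP-In cells, a human embryonic kidney line with a recombination site, that carried a transgene called SSF-DORmct-APEX2 in the labels and DOR-MRS(WT)-APEX2 in the study. This is a delta opioid receptor (DOR) with the recycling sequence of the mu receptor and the peroxidase APEX2 at its C terminus. All cells also carried dCas9-KRAB-BFP, a Cas9 that no longer cuts and instead represses the promoter to which its sgRNA leads it, and came from clonal expansion. They received sgRNAs at a multiplicity of infection of about 0.2, were selected with puromycin at 0.75 μg/ml, and were treated with 10 μM DADLE, an opioid peptide, before 100 μM Amplex UltraRed (AUR) was turned into a fluorescent product by APEX2. The labels give 90 min of agonist and 8 days after transduction, the latter also stated in the results of the study, while its methods give other times. The bottom and the top fluorescence quartile were sorted, with 1 library each, in every sublibrary (H17, H23 and H456). There was no untreated arm and no unsorted library, so a change in receptor level without agonist and a change in down-regulation cannot be told apart. The signal is AUR fluorescence, so a change in the APEX2 reaction itself cannot be told apart from these either.

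A phenotype is the log2 ratio of an sgRNA's share of analysed reads between the top and the bottom quartile, shifted so that nontargeting control (NTC) sgRNAs have a median of 0. A negative phenotype means that cells with that sgRNA were found more often in the dim quartile. Gene values are means over the sgRNAs at 1 start site, with the SD over those sgRNAs. P values come from an exact two-sided Mann-Whitney test of these sgRNAs against the NTC sgRNAs, adjusted by Benjamini-Hochberg over all 18905 genes. They compare the libraries of a single sort and carry no information on the spread between repeated sorts.

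Of the 35 members, 14 were in H23, 21 in H456 and 0 in H17. The 4 libraries concerned held 29611047 to 50486627 reads, and the members' sgRNAs had 57 to 4521 reads per library, with medians of 1151 in the bottom and 942 in the top quartile. The counting SD of a phenotype had a median of 0.0645, well under the median SD of 0.246 between sgRNAs of the same member. PCR reads carried no molecular identifiers, so this SD covers counting error only. Titles and library names in the labels conflict, since each library name carries T where its title says bottom and B where it says top; groups follow the titles. All directions given here rest on these titles.

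The files name sgRNAs by gene, strand and position and hold no sgRNA sequences. The sequences shown here are promoters of both called genes, POLR1B and TWISTNB (POLR1F in RefSeq). For comparison, those of the largest catalytic subunits are shown, POLR1A of Pol I and POLR3A of Pol III, neither of which was called. No sgRNA was placed on any of these sequences, and no call rests on them. They serve as a description. They are the 250 bases before the annotated start, 5′ to 3′ on the strand of the gene, from RefSeq on GRCh38.p14, and capitals mark CACGTG, the E-box bound by MYC and its relatives, and CCGGAAG or its reverse complement CTTCCGG, a motif of ETS-type factors.
POLR1A, chr2:86105887-86106136, minus strand: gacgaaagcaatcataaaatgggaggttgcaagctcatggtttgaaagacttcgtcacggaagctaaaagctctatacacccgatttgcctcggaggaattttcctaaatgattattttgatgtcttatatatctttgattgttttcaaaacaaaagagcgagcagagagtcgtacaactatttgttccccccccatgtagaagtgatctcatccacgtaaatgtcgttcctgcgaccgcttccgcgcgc
POLR1B, chr2:112541786-112542035, plus strand: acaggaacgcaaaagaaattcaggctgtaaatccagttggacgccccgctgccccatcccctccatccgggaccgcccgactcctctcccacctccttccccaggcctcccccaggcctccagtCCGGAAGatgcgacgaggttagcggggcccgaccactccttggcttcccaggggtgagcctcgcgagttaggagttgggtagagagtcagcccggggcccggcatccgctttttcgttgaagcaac
POLR1B, chr2:112542215-112542464, plus strand: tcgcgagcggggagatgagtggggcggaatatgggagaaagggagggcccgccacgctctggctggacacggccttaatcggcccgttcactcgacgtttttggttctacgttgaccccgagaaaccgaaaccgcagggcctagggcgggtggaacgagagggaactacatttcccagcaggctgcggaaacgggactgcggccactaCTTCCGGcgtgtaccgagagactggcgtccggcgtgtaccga
TWISTNB, chr7:19709038-19709287, minus strand: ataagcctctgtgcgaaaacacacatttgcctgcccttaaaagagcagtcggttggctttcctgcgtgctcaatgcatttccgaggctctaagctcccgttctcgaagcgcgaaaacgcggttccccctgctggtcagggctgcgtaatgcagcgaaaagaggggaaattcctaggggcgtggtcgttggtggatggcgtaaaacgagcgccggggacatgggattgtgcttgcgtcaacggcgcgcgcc
POLR3A, chr10:78029516-78029765, minus strand: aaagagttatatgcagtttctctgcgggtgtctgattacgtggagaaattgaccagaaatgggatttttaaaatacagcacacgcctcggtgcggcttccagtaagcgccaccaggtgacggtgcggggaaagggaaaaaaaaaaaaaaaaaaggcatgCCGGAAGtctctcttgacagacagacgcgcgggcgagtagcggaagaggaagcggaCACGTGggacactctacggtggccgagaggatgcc
RefSeq lists more than a single start for POLR1B, and each of its windows held the ETS-type motif once, with its first base 126 and 42 bases before the start. The POLR3A window held both motifs, while the TWISTNB and POLR1A windows held neither. Of the 41 windows of the 29 members with a window, 10 held CCGGAAG or CTTCCGG, against 8.52% of all 35116 windows and 10.7% of the 22198 windows of protein-coding genes. CACGTG was in 6 of the 41, against 6.34% and 7.37%. TATAAA, on either strand, was in 1 of the 41, that of GTF3C3, against 10.7% and 9.01%. Windows of the same gene can overlap, and these shares are a description only.

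For 2 members, the Pol I subunits POLR1B and TWISTNB, the sgRNAs were more common in the dim quartile at an exact Mann-Whitney adjusted p under 0.05. POLR1B is the second-largest subunit of Pol I, which forms the active center with POLR1A. TWISTNB is a subunit of the stalk, through which Pol I meets the initiation factor RRN3. These are 5.71% of the members, beside 0.381 percent of all 18905 genes (72 genes with a negative phenotype and an adjusted p under 0.05). In the positive direction, 0 members passed, beside 0.0952 percent of all genes. At an unadjusted p under 0.05 there were 3 negative members and 1 positive member, beside 4.05 and 4.07 percent of all genes. By a pseudogene rule built after the methods of the study, which limits hits to less than 10% pseudogenes made of NTC sgRNAs and whose score and draw were set here, the same POLR1B and TWISTNB were hits, beside 0.952 percent of all genes for negative hits and 0.233 percent for positive hits.

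**Figure D1:**
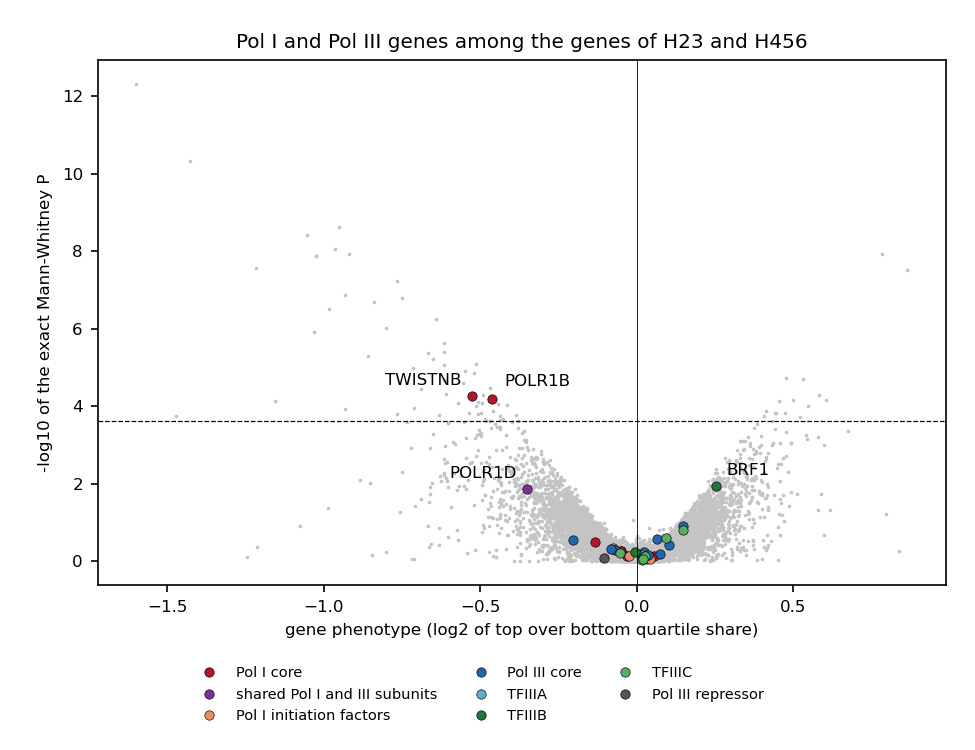
Gene phenotype (x axis, log2 ratio, top to bottom) against −log10 of the exact Mann-Whitney P (y axis) for each gene of H23 and H456, with the 35 members coloured by complex and the other genes in grey. The dashed line is the weakest P with an adjusted p under 0.05, and POLR1B at −0.46 and TWISTNB at −0.53 are the members above it.

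All 5 sgRNAs against POLR1B were depleted from the top quartile. Their shares, as RPM (reads scaled to a fixed total of analysed reads per library), went from 20.5 in the bottom to 13.2 in the top quartile, from 20.1 to 14.1, from 20.8 to 14.9, from 36.0 to 30.8 and from 33.3 to 25.6. The reads behind these were 826 and 622, 809 and 667, 839 and 705, 1450 and 1454, and 1342 and 1210. The single phenotypes thus lay between −0.66 and −0.24, with no sgRNA on the other side of 0, which holds for 4.45 percent of all genes. POLR1B had a phenotype of −0.46 ± 0.15 (SD, n = 5 sgRNAs, exact Mann-Whitney p = 6.5e-05, adjusted p = 0.0246) and ranked 50 by P among all genes. Its target positions fall into close pairs, 4 and 3 bases apart, and a single site, so the 5 sgRNAs are not 5 independent sites.

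All 4 analysed sgRNAs against TWISTNB were depleted from the top quartile as well. Their shares went from 19.3 to 13.6, from 37.3 to 23.01, from 22.6 to 16.3 and from 15.1 to 11.2 RPM, on 959 and 397, 1850 and 670, 1120 and 476, and 749 and 326 reads. Each of the 4 was thus scarcer in the top quartile, with phenotypes between −0.70 and −0.43. The gene phenotype was −0.53 ± 0.12 (SD, n = 4 sgRNAs, exact Mann-Whitney p = 5.43e-05, adjusted p = 0.0214), which ranked 48 by P. The spread between sgRNAs of either gene was below the median of all genes, 0.24. Of the 4 TWISTNB sgRNAs, 3 target positions within 14 bases on the same strand and so lie close to repeats of the same site. Neither gene shared an sgRNA with another gene.

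Both calls rest on the whole set of analysed sgRNAs. Without the strongest sgRNA of each gene, POLR1B was at −0.42 (exact Mann-Whitney adjusted p = 0.276) and TWISTNB at −0.47 (adjusted p = 0.308), and 0 members passed. With sgRNAs against olfactory receptor genes in place of the NTC sgRNAs, the adjusted p values were 0.0584 and 0.131.

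The other core subunits of Pol I stayed closer to 0. POLR1A, which carries the catalytic site, had −0.13 ± 0.29 (SD, n = 5 sgRNAs), from 3 negative sgRNAs at −0.50, −0.28 and −0.21 and positive ones at 0.10 and 0.22. Its sgRNAs were no rarer than those of POLR1B, with 794 to 1582 reads. CD3EAP and POLR1E form the heterodimer that helps Pol I start and elongate, and had −0.05 ± 0.17 and −0.05 ± 0.37 (SD, n = 5 sgRNAs each). ZNRD1, the small subunit tied to RNA cleavage, had 0.05 ± 0.25 (SD, n = 5 sgRNAs). One of the CD3EAP sgRNAs, at 0.18, is listed under PPP1R13L too, and without it CD3EAP was at −0.11. In all, 5 of the 6 core subunits were negative and 2 were called, beside 49.6 and 0.381 percent of all genes. Their median was −0.09, beside 0.0013 for all genes.

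The subunits shared by Pol I and Pol III were POLR1C and POLR1D, the pair on which both enzymes assemble. POLR1D had the third-lowest phenotype of the members, −0.35 ± 0.32 (SD, n = 5 sgRNAs, exact Mann-Whitney p = 0.0135), which did not pass the adjustment (adjusted p = 0.405). Its shares went from 37.97 to 21.6, from 22.02 to 22.7, from 14.6 to 11.02, from 36.9 to 28.7 and from 49.0 to 44.3 RPM, so that 4 of 5 sgRNAs were scarcer in the top quartile and the strongest, at −0.83, lay below the 2.5th percentile of the NTC sgRNAs of H23, −0.64. At the other start site of POLR1D, 5 further sgRNAs gave −0.23 ± 0.28 (exact Mann-Whitney p = 0.0994). LNX2, whose start lies 214 bases away on the opposite strand, had 0.05. POLR1C had −0.03 ± 0.16 (SD, n = 5 sgRNAs), with −0.03 at its other start site and −0.07 without the sgRNA that is also listed under LRRC73.

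Among the factors that bring Pol I to its promoter, no gene had an unadjusted exact Mann-Whitney p under 0.05. Of all genes, 4.05 percent had such a p with a negative and 4.07 percent with a positive phenotype. UBTF, which binds the ribosomal DNA promoter and opens its chromatin, had 0.03 ± 0.21, and RRN3, which bridges TWISTNB to SL1, had 0.04 ± 0.36 (SD, n = 5 sgRNAs each). The SL1 subunits TAF1A, TAF1B, TAF1C and TAF1D lay at −0.08, 0.03, −0.03 and 0.02. Of these 6 genes 2 were negative, and their median was 0.02. The sgRNAs of TAF1D spread most, from −0.72 to 0.52, on 105 to 1234 reads, while at its other start site the 5 sgRNAs spread by 0.0944 (SD) around −0.02. The sgRNAs of RRN3 ranged from −0.27 to 0.48, so that its mean near 0 came from sgRNAs on both sides.

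**Figure D2:**
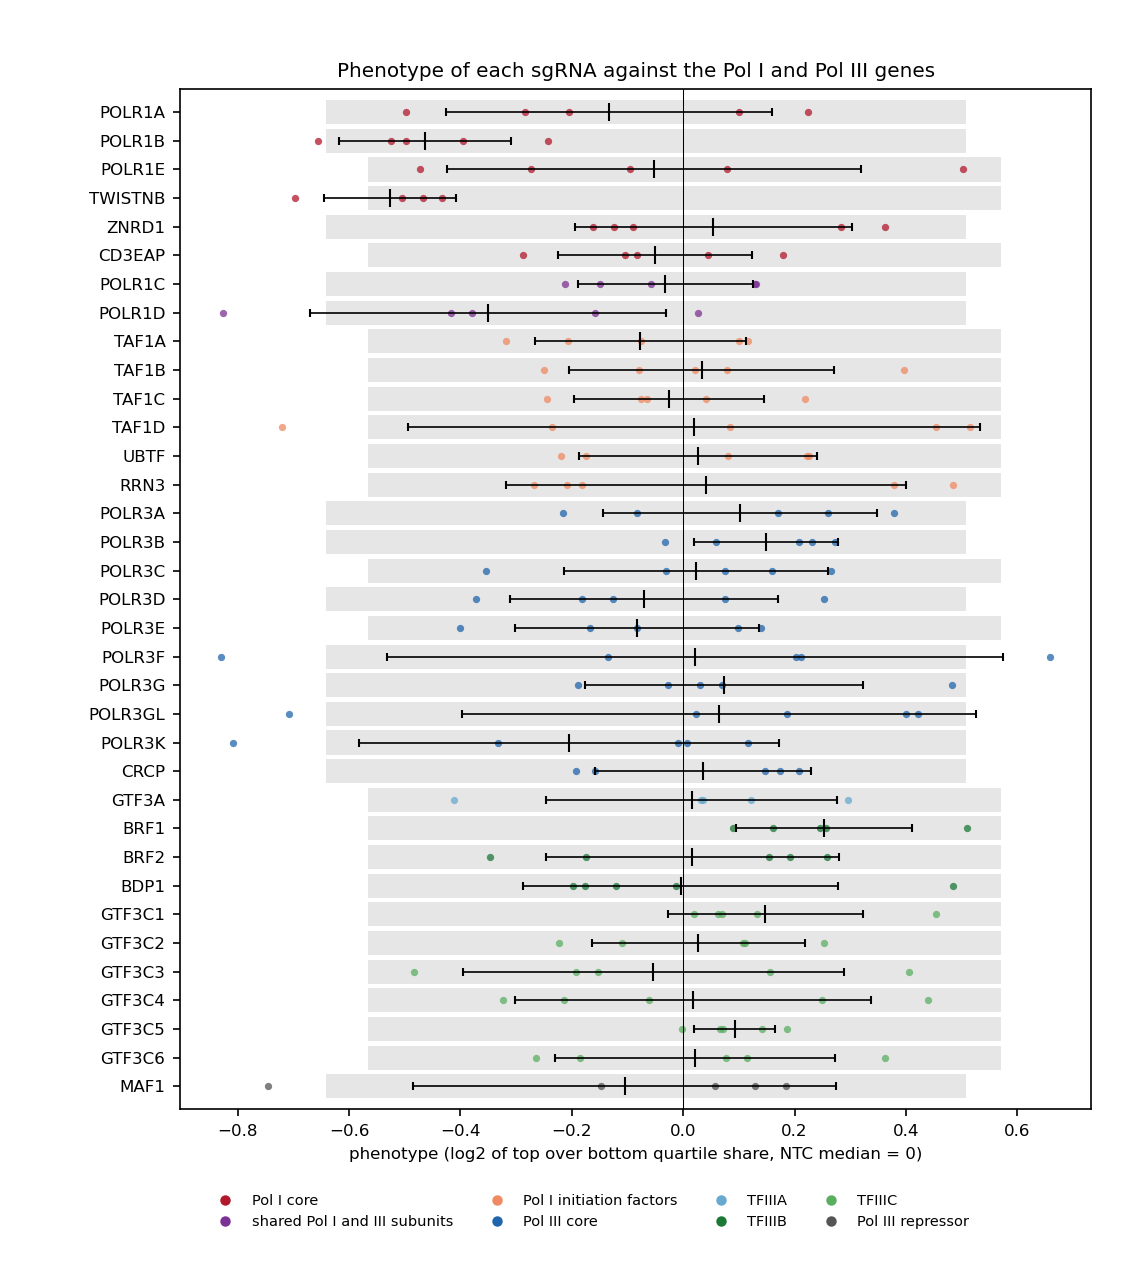
Phenotype of each of the 174 sgRNAs against the 35 members (x axis, log2 ratio, top to bottom; 1 row per gene, coloured by complex), with the gene mean as a tick and the SD over sgRNAs as a bar, over the central 95% of the NTC sgRNAs of the same sublibrary in grey. Every sgRNA of POLR1B and TWISTNB is left of 0, and 8 of the 174 sgRNAs lie left of the grey band and 1 right of it.

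Over all genes, 0.381 percent passed the adjustment with a negative and 0.0952 percent with a positive phenotype. None of the 21 genes listed here with Pol III but not with Pol I passed it in either direction. Of these genes 1, BRF1, had an unadjusted exact Mann-Whitney p under 0.05 with a positive phenotype, beside 4.07 percent of all genes. Their median was 0.02, with 6 negative and 15 positive genes (28.6 percent negative, beside 49.6 percent of all genes), and 41 of their 105 sgRNAs were negative. Of these sgRNAs, 4 lay below and 1 above the central 95% of the NTC sgRNAs. For comparison, 2.46 percent of all sgRNAs lay below and 2.82 percent above it. The 10 genes of the TFIIIA, TFIIIB and TFIIIC factors held 0 of either kind among 50 sgRNAs.

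The catalytic subunits of Pol III, POLR3A and POLR3B, were on the positive side. POLR3A had 0.10 ± 0.25 and POLR3B had 0.15 ± 0.13 (SD, n = 5 sgRNAs each), the latter with an exact Mann-Whitney p of 0.123 (adjusted p = 0.748). The shares of POLR3B sgRNAs went from 19.7 to 24.1, from 26.0 to 30.9, from 28.8 to 33.7, from 50.4 to 53.0 and from 4.03 to 3.98 RPM. Thus 4 of 5 sgRNAs were slightly more common in the top quartile, and the one that was not had the fewest reads, 162 and 188. POLR1B and POLR3B hold the same place in Pol I and Pol III, and both are in H23. Their sgRNA phenotypes ranged from −0.66 to −0.24 and from −0.03 to 0.27, and the difference between them was not tested. Other Pol I subunits in H23 also lay above the POLR1B range, ZNRD1 at −0.16 to 0.36 and the shared POLR1C at −0.21 to 0.13. POLR1A, at −0.50 to 0.22, and the shared POLR1D, at −0.83 to 0.03, overlapped it.

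POLR3K, the subunit involved in termination and RNA cleavage, had the lowest phenotype of the Pol III genes, −0.21 ± 0.38 (SD, n = 5 sgRNAs, exact Mann-Whitney adjusted p = 0.852). Its shares went from 18.3 to 18.6, from 23.5 to 18.8, from 40.2 to 40.3, from 37.9 to 41.5 and from 39.9 to 23.02 RPM. The last of these, at −0.81, is also listed under SNRNP25, a gene of the minor spliceosome whose start lies 220 bases away on the opposite strand. Without it POLR3K was at −0.05 ± 0.19 (SD, n = 4 sgRNAs). SNRNP25 was at −0.38 ± 0.37 (SD, n = 5, exact Mann-Whitney adjusted p = 0.452) with all of its sgRNAs, the shared one among them. These values are therefore not like for like, and the sgRNA cannot be assigned to either gene.

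The subcomplex of POLR3C, POLR3F and POLR3G, which Pol III needs to start, had 0.02, 0.02 and 0.07. POLR3F had the widest spread of the members, 0.55 (SD, n = 5 sgRNAs), from −0.83 to 0.66, and held the single sgRNA above the NTC range. POLR3D and POLR3E, which act in initiation and termination, had −0.07 and −0.08, and CRCP, a stalk subunit, had 0.04.

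POLR3G and POLR3GL are alternative forms of the same subunit. The POLR3G sgRNAs lay at 0.48, −0.03, −0.19, 0.07 and 0.03, with a mean of 0.07 ± 0.25, and those of POLR3GL at −0.71, 0.40, 0.02, 0.42 and 0.19, with a mean of 0.06 ± 0.46 (SD, n = 5 sgRNAs each). The adjusted exact Mann-Whitney p values were 0.942 and 0.843. The strongest POLR3GL sgRNA went from 905 reads in the bottom to 657 in the top quartile and opposed the other 4. Each set of sgRNAs targets a single form, and no sgRNA pair against both was in the screen. Whether the forms replace each other in these cells was not tested.

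BRF1 had the highest phenotype of all 35 members. Its shares went from 23.6 to 33.7, from 33.2 to 35.4, from 16.9 to 20.2, from 44.5 to 49.9 and from 21.5 to 25.5 RPM, so that all 5 sgRNAs were more common in the top quartile, as for 5.36 percent of all genes. The phenotype was 0.25 ± 0.16 (SD, n = 5 sgRNAs, exact Mann-Whitney p = 0.0113), and it did not pass the adjustment (adjusted p = 0.389). The 5 target positions lie within 38 bases, so the sgRNAs are close to repeats of the same site. BTBD6, whose start lies 58 bases away on the opposite strand, had 0.16 ± 0.23 with its own sgRNAs (exact Mann-Whitney adjusted p = 0.792), and PACS2 had 0.02.

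BRF2, the form of this factor used at U6-type promoters, had 0.02 ± 0.26 (SD, n = 5 sgRNAs, exact Mann-Whitney adjusted p = 0.963). Its sgRNAs lay at 0.26, −0.35, 0.19, 0.15 and −0.17 and so on both sides of 0. BDP1, the TFIIIB subunit that both forms share, had −0.0044 ± 0.28, from 4 negative sgRNAs and 1 at 0.49. GTF3A, which is TFIIIA and serves the 5S genes alone, had 0.02 ± 0.26.

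The 6 TFIIIC subunits bind inside transfer RNA genes as 1 complex and lay between −0.05 and 0.15. GTF3C1, the largest subunit, had 5 positive sgRNAs at 0.02, 0.13, 0.06, 0.07 and 0.45, with a mean of 0.15 ± 0.18 (SD, n = 5, exact Mann-Whitney adjusted p = 0.776). Its mean rested mainly on the last of these, with 686 and 552 reads. GTF3C5 had the narrowest set of all members, 0.14, −0.0017, 0.19, 0.07 and 0.07, with a mean of 0.09 ± 0.073 (SD, n = 5, exact Mann-Whitney adjusted p = 0.834). GTF3C2, GTF3C3, GTF3C4 and GTF3C6 had 0.03, −0.05, 0.02 and 0.02.

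MAF1 represses Pol III and so acts against the other Pol III genes. The MAF1 sgRNAs lay at 0.18, 0.06, −0.15, 0.13 and −0.75, with a mean of −0.10 ± 0.38 (SD, n = 5, exact Mann-Whitney adjusted p = 0.975). The lowest of them, with 694 reads in the bottom and 491 in the top quartile, set the sign of the mean. The other 4 lay within the range of the NTC sgRNAs on both sides of 0.

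Over all 35 members the median phenotype was 0.02, with 15 negative and 20 positive genes. A total of 25 members lay between −0.1 and 0.1, and 30 between −0.2 and 0.2. For reference, the weakest phenotype among the genes that passed the adjustment, without sign, was 0.406 in H23 and 0.384 in H456. This is the smallest value observed among called genes and not a limit of detection, which was not measured. With both libraries of a sublibrary thinned to the smaller total, the same POLR1B and TWISTNB passed. Knockdown of the genes was not measured in the screen.

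Genes that work beside these machines were tested in the same way. TBP, which sits in SL1 and TFIIIB as well as in Pol II factors, had −0.08. The subunits present in Pol I, Pol II and Pol III alike, POLR2E, POLR2F, POLR2H, POLR2K and POLR2L, had −0.09, −0.05, −0.20, −0.06 and −0.0055, with 0 of 5 called. Of the Pol II subunits 6 of 7 were measured and 0 were called, with a median of 0.01. The SNAPc complex, which recruits BRF2-type TFIIIB to U6 promoters, had 0 of 5 called and a median of −0.000105. Over all genes, 0.381 percent were called with a negative and 0.0952 percent with a positive phenotype. At these shares, 0 calls in lists this short do not set them apart from all genes.

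Downstream of Pol I, the UTP-A subcomplex binds the nascent ribosomal RNA precursor and is needed for its synthesis and processing. Its 6 genes were all negative, with a median of −0.35, and 1 of the 6 was called, beside 49.6 and 0.381 percent of all genes. This was WDR75 at −0.82 ± 0.25 (SD, n = 5 sgRNAs, exact Mann-Whitney adjusted p = 0.0149). WDR75, WDR43 and NOL11 are in H17, which held none of the members. The NTC sgRNAs of H17 had an SD of 0.47, beside 0.28 in H23 and 0.30 in H456. No WDR75 sgRNA lay below their 2.5th percentile in H17, −1.21, so these phenotypes and those of the members are not on scales of equal noise. HEATR1 at −0.51 and UTP15 at −0.45 were hits by the pseudogene rule but missed the adjusted threshold (exact Mann-Whitney adjusted p = 0.0887 and 0.151), beside 0.952 percent of all genes for negative hits. Without the strongest sgRNA of each gene, WDR75 at −0.74 was still a hit by the pseudogene rule (exact Mann-Whitney adjusted p = 0.169). HEATR1 and UTP15, at −0.38 and −0.31, were then no longer hits. Of the 6 genes for ribosomal DNA chromatin and termination (among them TTF1 and TCOF1), 5 were negative and 0 were called, with a median of −0.09.

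RNase P and RNase MRP, which cut transfer RNA and ribosomal RNA precursors and carry RNA subunits made by Pol III, had a median of −0.19 over 10 proteins, 9 of them negative and 1 called, beside the same 49.6 and 0.381 percent of all genes. RPP38 was called at −0.54 ± 0.32 (SD, n = 5 sgRNAs, exact Mann-Whitney adjusted p = 0.0378), and 2 of its sgRNAs are also listed under C10orf111. Without these it was at −0.51 (n = 3 sgRNAs, exact Mann-Whitney p = 0.00132) and did not pass the adjustment (adjusted p = 0.15). POP1 at −0.72 ± 0.48 was a hit by the pseudogene rule only (exact Mann-Whitney adjusted p = 0.143), beside 0.952 percent of all genes for negative hits. Without their strongest sgRNA, POP1 at −0.60 and RPP38 at −0.43 were still hits (exact Mann-Whitney adjusted p = 0.926 and 0.418). The 5S ribonucleoprotein genes RPL5, RPL11, RRS1 and RPF2 were all 4 negative, with 0 called and a median of −0.11. The transfer RNA maturation and export genes had 0 of 4 called and a median of 0.04. Of the regulators that set both polymerases, RPTOR at −0.62 ± 0.86 and MYC at −0.40 ± 0.27 (SD, n = 5 sgRNAs each) were hits by the pseudogene rule, beside the 0.952 percent of all genes. Their exact Mann-Whitney adjusted p values were 0.294 and 0.197, and MTOR, MLST8 and MAX were no hits. The RPTOR mean was carried by 1 sgRNA at −2.14, with 197 reads in the bottom and 53 in the top quartile, and without it RPTOR was at −0.24 and no hit. MYC without its strongest sgRNA was at −0.31 and no hit either. These lists were drawn up with earlier results of the screen known, and the differences between lists were not tested.

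**Figure D3:**
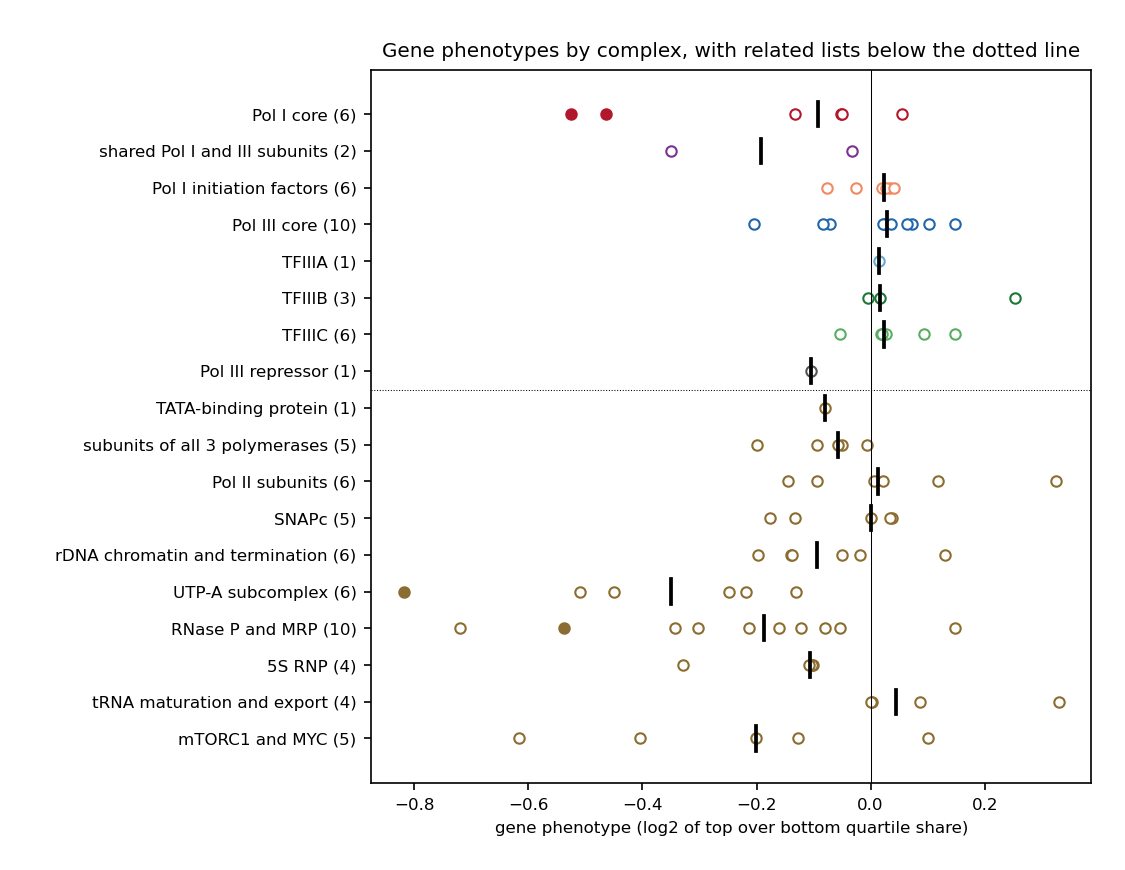
Gene phenotype (x axis, log2 ratio, top to bottom) of each measured gene, in rows by complex with the number of genes in brackets; members are above the dotted line and related lists below it, the bar is the list median and filled points passed an adjusted p of 0.05. Among the members the filled points are POLR1B and TWISTNB in the row of the Pol I core, which has a median of −0.09, and the row of the UTP-A subcomplex has a median of −0.35. Some genes of the UTP-A row are in H17, whose NTC sgRNAs spread more than those of H23 and H456.

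The abundance of the sgRNAs is computed from the same counts as the phenotype, but from their mean rather than their ratio. It is given as log2 of the mean share over both quartiles, with the NTC median at 0. Since neither an unsorted nor a plasmid library was among the samples, abundance mixes the starting share of an sgRNA with growth of the cells and cannot be read as loss of cells. The members' sgRNAs had a median abundance of −0.0047, beside 0.0069 for all sgRNAs of all genes. By complex, the medians ran from −0.25 for the Pol I initiation factors and −0.15 for the Pol III core to 0.20 for TFIIIC and 0.71 for the 5 sgRNAs of TFIIIA.

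Single genes spread far more than that. The lowest gene medians were those of TAF1D, at −1.63, and RRN3, at −1.13, and the highest was that of GTF3C5, at 0.88. POLR1B was at −0.64 and TWISTNB at −0.45. Across the 174 sgRNAs, phenotype and abundance had a Pearson r of 0.0853, and across the 35 gene values of 0.16. The size of the phenotype without sign had an r of −0.327 with abundance across the 174 sgRNAs. These sgRNAs share libraries, and the rarer ones have a larger counting error. The r is given as a description, and what lies behind it was not tested.

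**Figure D4:**
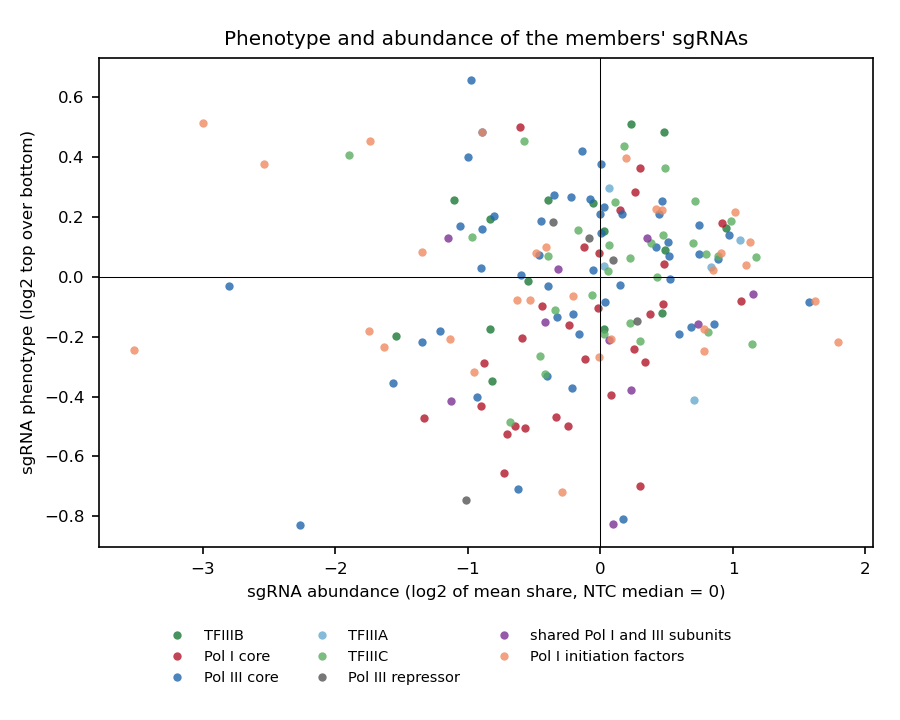
Phenotype (y axis, log2 ratio, top to bottom) against abundance (x axis, log2 of the mean share over both quartiles, NTC median at 0) of the 174 sgRNAs against the members, coloured by complex. The points form no line (r = 0.0853), and sgRNAs of low abundance lie both above and below 0.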

How the data were processed

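Genomic DNA of 6 sorted libraries (3 sublibraries, bottom and top quartile, 1 library each) was sequenced. The authors amplified sgRNAs with 27 PCR cycles, cropped reads to 38 bp and counted them with ScreenProcessing (version 0.1). Per sgRNA, the deposited files hold raw counts without normalization, for 209070 sgRNAs. For their positions, a genome build was not given in the sources used here, so no sgRNA coordinates are printed.

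Genes were assigned to the sublibrary with the majority of their sgRNAs. sgRNAs with at least 50 reads in either library and at least 10% of their reads in that sublibrary were analysed, and 1 was added to both counts where one was 0. Genes needed at least 2 sgRNAs at a start site; of several sites, that of lower P was used. The exact Mann-Whitney test and pseudogenes of 5 NTC sgRNAs (seed 1, threshold per sublibrary) followed the methods of the study as far as these state them, were written in Python 3.11.15 (scipy 1.17.1), and were tested on simulated data. With 1 library per group, edgeR (version 4.0.16) served for TMM factors only. Neighbouring starts within 1000 bases came from RefSeq GRCh38.p14, and 29 of 35 members matched a promoter window.

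Every member is named. sgRNA values are given for called members, the 10 with the lowest P, the paralog pairs and MAF1. Of the related lists, TBP and the 5 subunits of all 3 polymerases are named always, others where called or hits, and a few more after their values were seen; results for some genes are not reported here. Members and lists were chosen with earlier results of these data known. There were 14 alternatives, and 7 more for hits.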

Additional observations from a re-analysis of the deposited data

How the results depend on the processing

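The top and the bottom library of a sublibrary were compared with each other throughout. No analysis over repeated sorts was possible, because each quartile of a sublibrary had 1 library and the labels carry no replicate numbers. Of the 14 alternatives, 12 kept 2 members past the adjusted threshold, and the count fell to 0 under the remaining alternatives, without the strongest sgRNA and with olfactory receptor sgRNAs in place of the NTC sgRNAs. There POLR1B was at −0.42 with an exact Mann-Whitney adjusted p of 0.276 and TWISTNB at −0.47 with 0.308 without the strongest sgRNA, and the adjusted p values were 0.0584 and 0.131 with the olfactory receptor set. Over all alternatives POLR1B ranged from −0.56 to −0.42, with exact Mann-Whitney adjusted p values from 0.0223 to 0.276, and TWISTNB from −0.72 to −0.47, with 0.00336 to 0.308. The −0.72 and the 0.00336 of TWISTNB came from the limit of at least 1 read in either library. Of the 490 member values and adjusted p values recomputed, 486 kept their side of the threshold and 0 called members changed sign. Over all 21 settings, including other pseudogene draws and thresholds, POLR1B was a hit in 21, TWISTNB in 20 and POLR1D in 1, with the olfactory receptor set.

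Over all genes, the calls of 72 negative and 18 positive genes became 20 and 2 without the strongest sgRNA and 41 and 9 with the olfactory receptor set. Hits, 180 negative and 44 positive, became 113 and 28, and 398 and 182, under these settings, and 114 and 36 with pseudogene seed 5. Leaving out the strongest sgRNA lowers the number of sgRNAs per gene and takes away the value furthest from the NTC median. The NTC sgRNAs in the test were left as they were. What caused these changes in the counts was not tested.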
